A study of Mus musculus with 89 samples.

Results

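Mid villus clumps of the mouse small intestine were compared with crypt clumps. A clump is a pair or a small group of neighbouring epithelial cells that stayed attached when the jejunum was dissociated with EDTA and was sorted into 1 well as a unit. Wells came from plates labelled 4n, which hold pairs by DNA content, and h4n, which hold larger clumps. The animals were C57BL/6 male mice of 3 months, numbered 1 to 5, that received no treatment. Mice 1, 4 and 5 gave plates of both gates and mice 2 and 3 gave 4n plates only. Each well counts transcripts by unique molecular identifiers (UMIs), and the value of a gene is its CPM, the UMI count scaled to a common total over the summed wells of 1 mouse and zone.

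The zones were selected on 4 genes. Wells with more than 500 UMIs, at least 200 genes and a mitochondrial share of at most 30% were kept, which left 6004 of 15626 clump wells of these mice. A well was called mid villus when Apoa1, Apoa4 and Apob together held at least 1% of its UMIs and Ada held less than 0.05%. It was called crypt when the 3 apolipoproteins held less than 0.5% and no Ada UMI was counted. This gave 1399 mid villus clumps and 3064 crypt clumps, 4463 of the 34012 wells of clumps and single cells in the series. The mid villus held 299, 375, 480, 137 and 108 wells of mice 1 to 5, and the crypt held 473, 208, 336, 1882 and 165. A further 668 wells with the apolipoproteins at or above 1% and Ada at or above 0.05% were called villus tip and serve as the nearest neighbour of the mid villus. They were uneven, with 71, 231, 304, 21 and 41 wells of mice 1 to 5 and sums as small as 47620 UMIs in mouse 5, so that comparisons with the tip rest on thinner sums.

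The villus is a finger of absorptive epithelium that is fed by the crypt at its foot. Stem cells divide near the crypt base between Paneth cells, which secrete antimicrobial defensins, and their progeny climb the villus as enterocytes until they are shed from the tip. Enterocytes digest sugars and peptides with enzymes of the brush border, carry the products inward with membrane transporters and pack dietary fat into chylomicrons on apolipoproteins. What a cell makes changes while it climbs, so that each height of the villus has its own mix of transcripts.

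Windows at gene starts are shown for both markers with a motif match, for 2 genes with a large mid villus rise whose windows hold an HNF4 match, and for 2 defensin genes that are among the largest falls. They run from 250 bases before to 50 bases after the start that RefSeq gives in GRCm38.p6, the first where several are given, 5′ to 3′ on the strand of the gene, and 59 of the 89 genes chosen for naming had one. For Pdzk1, with 2 starts given, and for Cyp3a11 that start lies 781 and 110 bases within the gene as GENCODE draws it, so these windows are not those at its GENCODE start. Capitals mark matches, on either strand, to the letters of 7 motifs. CAAAGTCCA is bound by HNF4, a nuclear receptor of enterocytes. TTTATG is a core of the homeobox factors CDX and was searched as such. GTTAAT is the shorter site of HNF1, another factor of the enterocyte. AGATAA is a site of the zinc finger factors of the GATA family. CACGTG is the E-box, known as a site of MYC in growing cells. CTTTGAT is the site of TCF and LEF, the factors that act for Wnt in the crypt. TATAAA is the TATA box, where the basal machinery of transcription can bind.
Slc5a1 (chr5:33103969-33104268, plus strand): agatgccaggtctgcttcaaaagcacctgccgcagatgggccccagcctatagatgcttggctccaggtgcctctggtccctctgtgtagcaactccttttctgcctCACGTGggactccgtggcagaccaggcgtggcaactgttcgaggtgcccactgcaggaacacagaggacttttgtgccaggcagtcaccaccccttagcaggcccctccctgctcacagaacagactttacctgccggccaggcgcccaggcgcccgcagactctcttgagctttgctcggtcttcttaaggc
Reg3a (chr6:78380459-78380758, plus strand): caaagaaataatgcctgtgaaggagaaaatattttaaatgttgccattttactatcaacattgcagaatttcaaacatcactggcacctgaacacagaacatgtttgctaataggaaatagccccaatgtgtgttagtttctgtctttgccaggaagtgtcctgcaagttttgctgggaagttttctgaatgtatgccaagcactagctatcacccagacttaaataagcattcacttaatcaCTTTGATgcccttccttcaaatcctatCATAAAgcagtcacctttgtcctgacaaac
Pdzk1 (chr3:96829815-96830114, plus strand): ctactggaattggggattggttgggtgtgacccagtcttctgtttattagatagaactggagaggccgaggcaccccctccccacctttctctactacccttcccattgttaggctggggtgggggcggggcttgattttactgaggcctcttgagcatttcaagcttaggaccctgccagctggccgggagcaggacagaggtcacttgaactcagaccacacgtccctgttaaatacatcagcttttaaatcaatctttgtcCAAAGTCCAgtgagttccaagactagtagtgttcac
Cyp3a11 (chr5:145879805-145880104, minus strand): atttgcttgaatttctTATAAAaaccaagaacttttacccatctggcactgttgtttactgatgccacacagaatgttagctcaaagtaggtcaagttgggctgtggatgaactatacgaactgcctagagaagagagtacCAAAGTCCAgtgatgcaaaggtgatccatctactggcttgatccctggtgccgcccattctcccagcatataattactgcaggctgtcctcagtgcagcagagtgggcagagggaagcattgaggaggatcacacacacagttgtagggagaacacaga
Defa2 (chr8:21378267-21378566, plus strand): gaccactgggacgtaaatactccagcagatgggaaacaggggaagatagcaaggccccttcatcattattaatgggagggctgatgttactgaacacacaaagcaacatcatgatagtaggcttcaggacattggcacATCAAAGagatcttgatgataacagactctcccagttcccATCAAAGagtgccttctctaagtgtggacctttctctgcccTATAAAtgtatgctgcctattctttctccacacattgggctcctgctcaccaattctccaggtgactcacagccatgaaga
Defa22 (chr8:21162027-21162326, plus strand): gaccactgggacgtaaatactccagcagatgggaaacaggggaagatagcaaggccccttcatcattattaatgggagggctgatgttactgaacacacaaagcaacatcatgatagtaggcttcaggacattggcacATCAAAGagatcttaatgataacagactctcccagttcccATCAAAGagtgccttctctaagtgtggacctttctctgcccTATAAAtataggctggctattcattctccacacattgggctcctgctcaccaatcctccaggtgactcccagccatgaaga

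Slc5a1 held 1 match, to the E-box, 143 bases before the start. Reg3a held a TCF/LEF match 7 bases before the start and a CDX match 20 bases after it. The HNF4 letters stood 14 bases after the RefSeq start of Pdzk1 and 109 bases before that of Cyp3a11, where a TATA match stood 234 bases before the start. Of all 27025 windows of this length, 0.477% held the HNF4 letters, 12.2% CDX, 7.24% the E-box, 3.72% TCF/LEF and 14.2% TATA. The windows of Defa2 and Defa22 shared 293 of 300 bases and held the same matches, TCF/LEF at 112 and 72 bases and TATA at 31 bases before the start. A comparison of motif shares between the genes called in each direction was void, because only 920 of 1219 and 850 of 1665 had a window here. A match is a run of letters, not a bound site. Slc7a7 has 5 starts in the table, and the first of them held no match.

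By construction the apolipoproteins held 1.89% to 2.93% of the summed mid villus UMIs of the 5 mice and 0.0473% to 0.151% of those of the crypt. Ada held at most 0.00531% of the mid villus UMIs. These 4 genes chose the wells and were left out of all counts below. The other genes were read in the same wells. A gene that follows the apolipoproteins from well to well thus differs between the zones through the choice of wells. The main test asks only whether a difference between zones is large beside the spread of mice within each zone. The fit with the mouse as a block sets it against the spread of the difference within mice. A well between both limits belonged to neither zone, and 595 wells were of that kind. A crypt well had to hold no Ada UMI, and the 278 wells of low apolipoprotein share that held one were deeper, with a median of 9664 UMIs against 4240 in the crypt and 1860 in the mid villus.

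**Figure D1:**
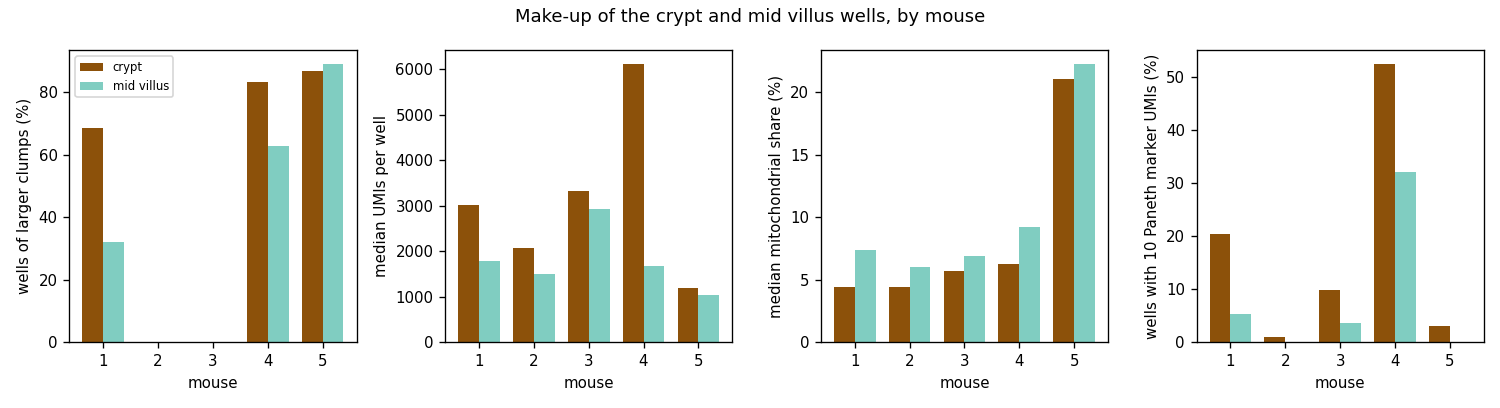
The 4 panels show, for each mouse, the share of wells that hold larger clumps (%), the median UMIs per well, the median mitochondrial share (%) and the share of wells with 10 or more Paneth marker UMIs (%). Brown bars are crypt wells and green bars mid villus wells; mouse 4 had the deepest crypt wells and mouse 5 the highest mitochondrial share in both zones.

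The zones differed in more than position, as the plot of their make-up shows. After the 4 genes were left out, the sums held from 141919 UMIs in the mid villus of mouse 5 to 16416666 in the crypt of mouse 4. Mouse 4 supplied 61.4% of the crypt wells, of which 83.3% held larger clumps, against 62.8% of its mid villus wells. Larger clumps made up 68.5% of crypt and 32.1% of mid villus wells in mouse 1, and 86.7% and 88.9% in mouse 5. In mouse 5 the median mitochondrial share was 21.1% in crypt wells and 22.2% in mid villus wells, whereas it lay between 4.41% and 9.25% in the other mice. Because both zones came from the same animals, a sum of 1 mouse in one zone shares its animal with the sum of that mouse in the other. The share of these differences in the results below was not tested, except where values without these mice or within 1 gate are given.

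Of 6320 genes tested with edgeR, 2884 or 45.6% passed an adjusted p of 0.05. The mid villus was higher for 1219 genes (19.3%) and lower for 1665 (26.3%). A gene could pass the filter on low counts through 1 zone alone, so the counts of a list describe the members that passed it. These shares are the background for each list below, and the median log2 fold change over all genes tested was -0.06. Every mid villus sum lay above every crypt sum for 9.57% of the genes tested, and every one lay below for 16%. Within each mouse the mid villus was higher than the crypt for 23.1% and lower for 30.3%. With mice 4 and 5 left out, an alternative chosen after seeing the data, 4003 genes were called.

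The crypt label was checked on markers of dividing and stem cells. Mki67, a nuclear protein of dividing cells, stood at 32.6, 61.0, 47.8, 168 and 9.45 CPM in the crypt of mice 1 to 5, and at 1.37, 0, 4.30, 19.5 and 7.05 in the mid villus. Each mouse was lower in its mid villus, although the crypt of mouse 5 lay below the mid villus of mouse 4. The difference was -3.69 ± 0.78 on the log2 scale (± SE derived from the test statistic, n = 5 mice in each zone, adjusted p = 0.00152 by edgeR). Olfm4, a marker of stem cells at the crypt base, was too sparse to be tested. It stood at 11.9 ± 8.44 CPM in the crypt and 0.971 ± 1.69 in the mid villus (SD, n = 5), from 443 and 4 UMIs in sums of unlike size. Lgr5, the receptor that defines these stem cells, was looked at after its values were seen. It stood at 20.3 ± 9.43 CPM in the crypt and 23.2 ± 10.9 in the mid villus (SD, n = 5) and did not pass (adjusted p = 0.792). The crypt wells thus held transcripts of dividing cells, while the stem cell markers Olfm4 and Lgr5 were sparse in them, and they also held the lower villus transcripts described further on.

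**Figure D2:**
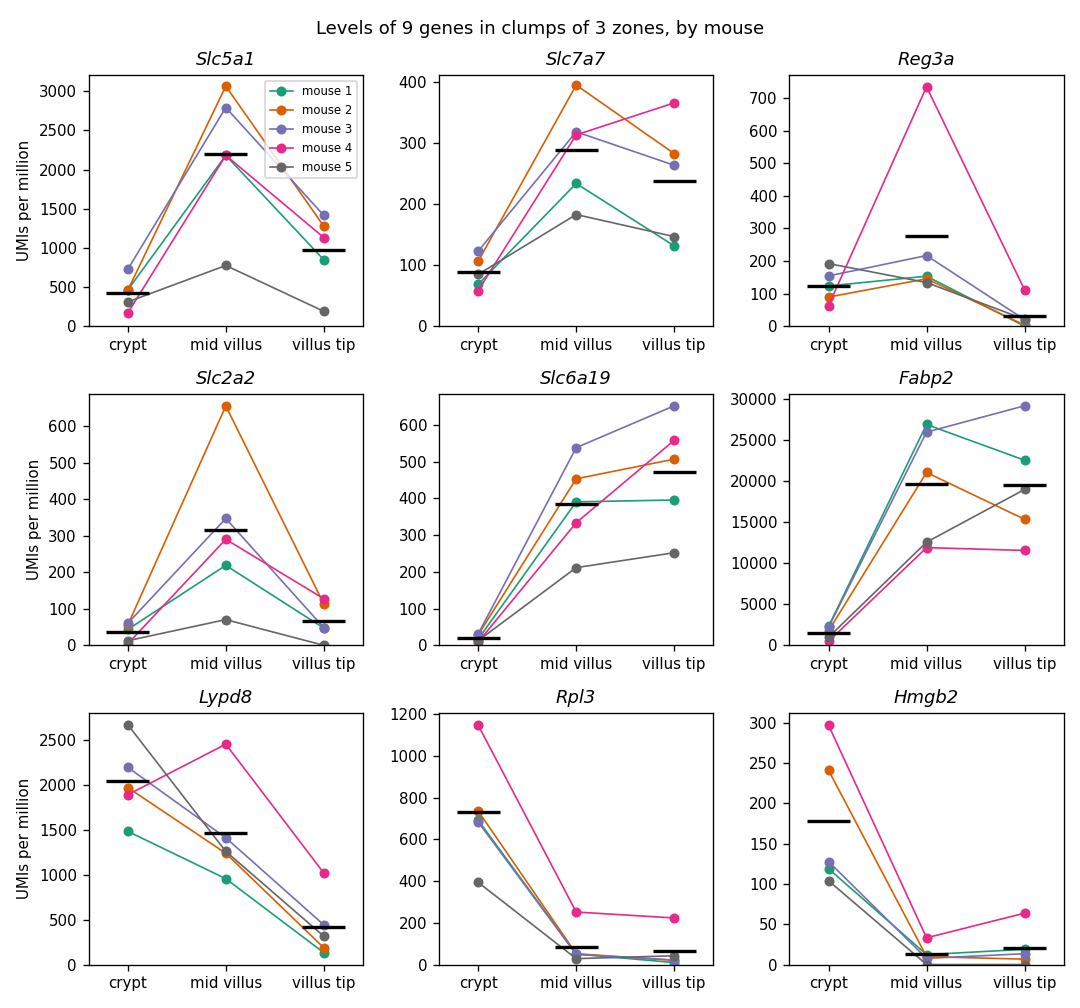
Each panel plots 1 gene in CPM (vertical axis, from 0) in the crypt, mid villus and villus tip sums of mice 1 to 5. Coloured points joined by lines are mice and black bars are means. In the mid villus Slc5a1 has a mean of 2199.8, against 424 in the crypt and 972 at the tip.

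Slc5a1 encodes SGLT1, the sodium-coupled carrier that brings glucose and galactose in from the gut lumen, and lies on chromosome 5 at 33104219 to 33162870 (GRCm38, plus strand). It stood at 2181.8, 3067, 2793, 2182.2 and 775 CPM in the mid villus of mice 1 to 5. In the crypt it stood at 462, 458, 725, 167 and 309. The lowest mid villus value, that of mouse 5, was above the highest crypt value. The fitted rise was 5.17-fold (2.37 ± 0.39 on the log2 scale, adjusted p = 2.18e-04). At the tip it had a mean of 972 ± 485 CPM. The mid villus was higher than the tip in each of the 5 mice, but the test of that difference did not pass (1.06 ± 0.39 on the log2 scale, adjusted p = 0.0877). With the mouse as a block it passed (1.13, adjusted p = 7.39e-06).

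Slc7a7 encodes y+LAT1, the basolateral exporter of cationic amino acids, and lies on chromosome 14 at 54369442 to 54417780 (minus strand). Its mid villus values were 234, 396, 319, 314 and 183 CPM and its crypt values 68.5, 106, 123, 58.4 and 85.1. The zones did not overlap, and the rise was 3.36-fold (1.75 ± 0.25 on the log2 scale, adjusted p = 8.35e-05). Between mid villus and tip the difference was 0.19 ± 0.29 on the log2 scale (adjusted p = 0.712).

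Reg3a encodes a secreted C-type lectin of the Reg family, whose members act on bacteria, and lies on chromosome 6 at 78380709 to 78383827 (plus strand). It stood at 153, 145, 217, 735 and 134 CPM in the mid villus and at 123, 89.3, 154, 63.0 and 192 in the crypt. The zones overlapped, mouse 5 had the opposite order, and mouse 4 was far above the other mice in its mid villus. The difference of 1.10 ± 0.47 on the log2 scale did not pass (adjusted p = 0.0720), and without mouse 4 it was 0.21 (adjusted p = 0.624). It passed with no filter on low counts (1.26, adjusted p = 0.0486), without mouse 5 (1.60, adjusted p = 0.0243), and with the mouse as a block (0.98, adjusted p = 0.0322). Against the tip Reg3a was called, at 31.2 ± 45.9 CPM there and 3.63 ± 0.76 higher in the mid villus on the log2 scale (adjusted p = 0.00644, and 0.0616 without mouse 3).

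**Figure D3:**
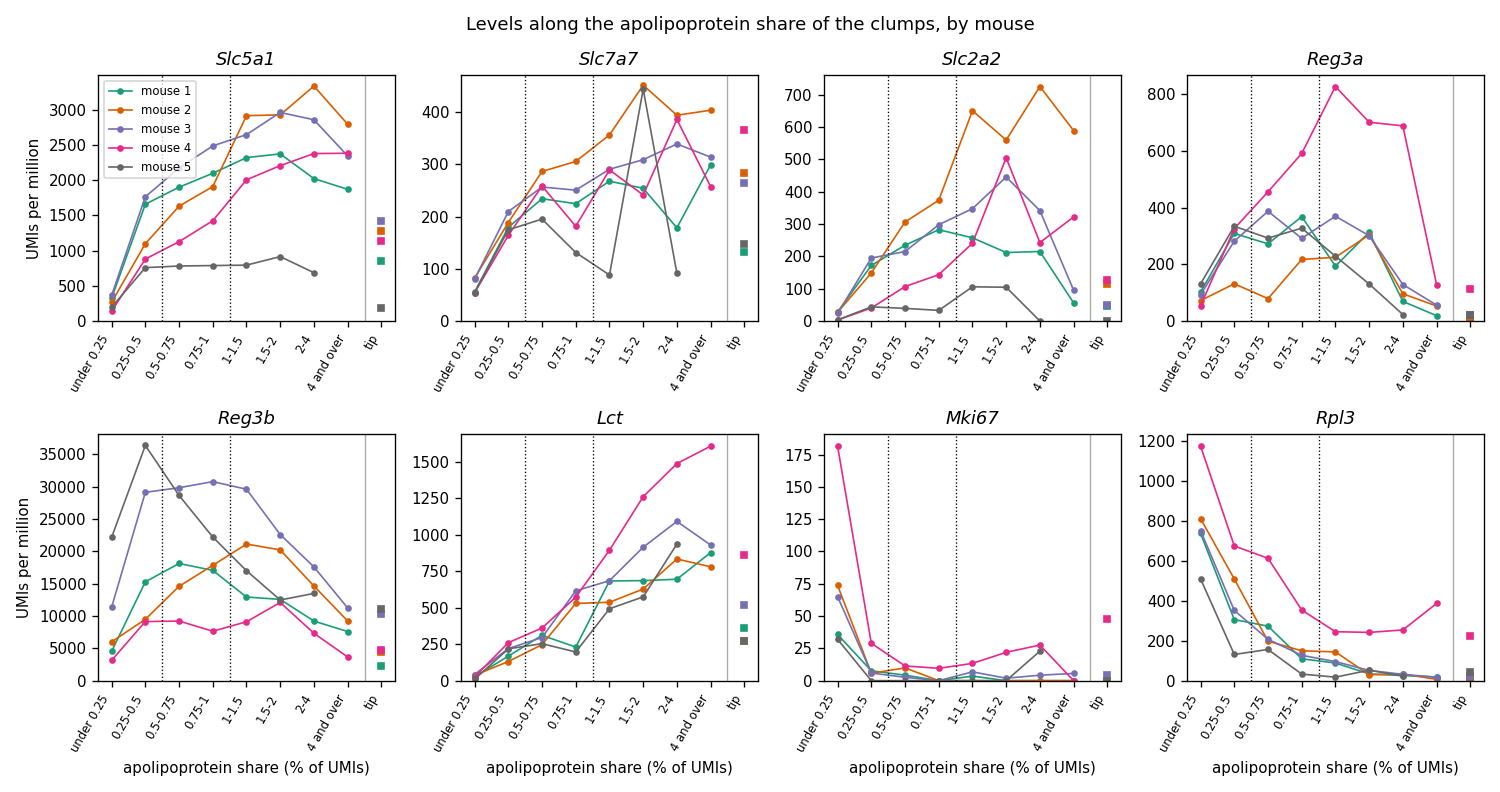
Each panel plots 1 gene in CPM (vertical axis) against the apolipoprotein share of the wells in % of UMIs (horizontal axis), 1 line per mouse, for wells with Ada below 0.05%; squares at the right are the villus tip. Dotted lines bound the wells that belong to neither zone. Over mice 1, 2, 3 and 5 Slc5a1 goes from 1582 to 2479.9 CPM across them.

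The limits of the zones cut a continuous scale, as the plot of levels along the apolipoprotein share shows. Mouse 4 held most of the wells with the lowest shares, so the values are given over the wells of the other 4 mice with Ada below 0.05%. Slc5a1 stood at 325 CPM below a share of 0.25% (993 wells), against 138 in mouse 4. It was 1582 just inside the crypt limit (0.25% to 0.5%, 284 wells) and 1923 just outside it (0.5% to 0.75%, 245 wells). On the mid villus side it was 2189 just outside the limit (0.75% to 1%, 207 wells) and 2479.9 just inside (1% to 1.5%, 322 wells). Slc7a7 was 198 and 249.5 on either side of the crypt limit and 250.4 and 283 on either side of the mid villus limit. Near the limits both genes thus differed far less than between the zones as a whole. Reg3a was 269 and 305 at the crypt limit, 297 and 284 at the mid villus limit, and 49.2 in wells with 4% or more. Mki67 stood at 51.0 CPM below a share of 0.25% and at 5.91 between 0.25% and 0.5%, against 182 and 28.9 in mouse 4. These values describe the scale that selected the wells and were not tested.

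Of 14 genes of hexose uptake and handling, 12 were tested, 10 rose in the mid villus and none fell, with a median log2 fold change of 1.34. Slc2a2 (GLUT2), the basolateral hexose exporter, stood at 219, 656, 348, 291 and 70.5 CPM in the mid villus and at 43.5, 55.3, 60.2, 4.26 and 12.6 in the crypt. No mid villus value fell within the crypt range, and the rise was 9.29-fold (3.22 ± 0.61 on the log2 scale, adjusted p = 6.59e-04). Slc2a5 (GLUT5), the fructose carrier of the brush border, rose 4.49-fold (adjusted p = 7.70e-04), from 23.6 ± 10.4 to 94.6 ± 62.6 CPM (SD, n = 5). It was higher in 4 of 5 mice, and mouse 5 had the opposite order. Pck1, the entry enzyme of gluconeogenesis, rose 12.6-fold, from 5.22 ± 2.38 to 61.8 ± 43.2 CPM (adjusted p = 3.34e-05).

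Some hexose genes also stood higher in the mid villus than at the tip. Against the tip 487 of 3956 genes tested were called (12.3%), 223 of them higher in the mid villus (5.64%) and 264 lower (6.67%). The count was 195, 207 and 176 without mice 1, 2 and 3, and 1405 with the mouse as a block. Of the 12 hexose genes tested there, 6 were called higher in the mid villus and none lower, whereas with the mouse as a block 9 were called higher and 1 lower, and without mouse 1 or 3 only 2 were called higher and without mouse 2 only 3 (median log2 fold change 1.29, against 0.06 over all genes tested). Slc2a2 was 2.04 ± 0.53 higher on the log2 scale (adjusted p = 0.0201), at 67.2 ± 52.5 CPM in the tip. That call was lost without mouse 1 or mouse 3 (adjusted p = 0.0842 and 0.116). Slc2a5 was higher in the mid villus of 5 of 5 mice by 1.83 ± 0.70, which did not pass (adjusted p = 0.100) except with the mouse as a block (2.04, adjusted p = 2.13e-05). Pck1 differed by 0.02 ± 0.62 (adjusted p = 0.994).

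Of 18 genes of amino acid and peptide uptake, 15 were tested, 12 rose and 1 fell, with a median log2 fold change of 1.75. Slc6a19 (B0AT1), the brush border carrier of neutral amino acids, stood at 390.3, 453, 538, 333 and 211 CPM in the mid villus and at 16.7, 28.4, 30.6, 8.77 and 12.6 in the crypt. The zones lay far apart in each mouse, and the rise was 20.9-fold (4.38 ± 0.34 on the log2 scale, adjusted p = 3.98e-06). Slc15a1 (PEPT1), which takes up di- and tripeptides, rose 14.0-fold, from 30.9 ± 18.5 to 376 ± 114 CPM (adjusted p = 5.31e-05). Slc7a9, the light chain of the brush border carrier of cationic amino acids and cystine, rose 2.83-fold (adjusted p = 4.57e-04). The member that fell, named after its values were seen, was Slc1a1, a glutamate carrier (-1.42 ± 0.35 on the log2 scale, adjusted p = 0.00426).

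Slc7a8 (LAT2), a basolateral exchanger of neutral amino acids, rose 2.54-fold over the crypt (40.8 ± 15.2 to 102 ± 58.6 CPM, adjusted p = 0.0164), a call that was lost without mouse 3 (adjusted p = 0.0546) or mouse 4 (adjusted p = 0.0611). At the tip it stood at 15.3 ± 19.6 CPM, and the mid villus was 2.78 ± 0.62 higher on the log2 scale (adjusted p = 0.00903, and 0.0766 without mouse 3). Slc6a19, Slc15a1 and Slc7a9 differed from the tip by -0.39 ± 0.25, -0.08 ± 0.42 and -0.25 ± 0.25 on the log2 scale, and none of these passed (adjusted p = 0.334, 0.937 and 0.553), although Slc6a19 was lower in the mid villus of each of the 5 mice. Of the 13 members tested there, 4 were called higher in the mid villus and 1 lower (6 and 2 with the mouse as a block). None was called lower with any 1 mouse left out, and 2 were called higher without mouse 3.

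Of 20 hydrolases tested 19 rose and none fell, with a median log2 fold change of 3.18. Enpp7, an alkaline sphingomyelinase, rose from 3.44 ± 3.06 to 58.3 ± 24.4 CPM (5.13 ± 0.83 on the log2 scale, adjusted p = 1.95e-04), with 19 UMIs in all crypt wells. Enpp3, an ectonucleotidase, rose from 2.97 ± 2.94 to 95.9 ± 68.3 (5.06 ± 0.61 on the log2 scale, adjusted p = 2.42e-05). At the tip Enpp3 stood at 656 ± 348 CPM, and the mid villus differed from it by -2.86 ± 0.48 on the log2 scale (adjusted p = 0.00155). Of the 20 hydrolases tested against the tip 1 was called higher in the mid villus and 3 lower, while 8 were called higher and 3 lower with the mouse as a block. The count of lower calls was 1 without mouse 1, 2, 3 or 4. Sis, the sucrase-isomaltase, was the tested hydrolase that did not pass, at 2148 ± 1132 CPM in the mid villus and 969.6 ± 636 in the crypt (1.16 ± 0.52 on the log2 scale, adjusted p = 0.0837).

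All 22 microvillus genes were tested, and 20 rose and none fell, with a median log2 fold change of 1.61. Pdzk1, a scaffold that holds transporters at the apical membrane, rose 17.5-fold, from 25.5 ± 14.5 to 425 ± 143 CPM (4.13 ± 0.53 on the log2 scale, adjusted p = 3.52e-05). It was 0.87 ± 0.27 higher than at the tip (log2 scale, adjusted p = 0.0476), a call that was lost with any 1 mouse left out (adjusted p = 0.154, 0.149, 0.0806, 0.0611 and 0.0932 without mice 1 to 5). Tmigd1, an adhesion protein of the brush border, rose 11.9-fold, from 14.3 ± 14.4 to 139 ± 117 CPM (adjusted p = 0.00467). Against the tip 2 of 22 microvillus genes were called higher in the mid villus and none lower, but with the mouse as a block 3 were called higher and 10 lower. Tmigd1 was below the tip in each of the 5 mice (-0.93 ± 0.55 on the log2 scale, adjusted p = 0.288, and -0.88 with an adjusted p of 0.00118 with the mouse as a block). None of these genes was called with mouse 1, 2, 3 or 4 left out.

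Fat handling is the function of the 3 apolipoproteins that selected the wells, and its other genes were counted in the wells chosen in that way. With the selecting genes left out, 27 of 30 listed genes were tested, 25 rose and 1 fell, with a median log2 fold change of 2.02. Apoc2 and Apoc3 are apolipoproteins that regulate lipoprotein lipase. Apoc2 rose 27.0-fold (65.5 ± 34.3 to 1710.1 ± 969.7 CPM, adjusted p = 1.36e-05) and Apoc3 18.0-fold (89.6 ± 47.9 to 1571 ± 639, adjusted p = 1.42e-05). Fabp2, the intestinal fatty acid binding protein, stood at 26922, 21074, 25991, 11913 and 12578 CPM in the mid villus and at 2304, 1767, 2209.8, 481 and 986 in the crypt. No value overlapped, its rise was 13.0-fold (adjusted p = 5.68e-05), and its mid villus and tip sums differed by -0.09 ± 0.39 on the log2 scale (adjusted p = 0.928). Apoc3 and Apoc2 were lower than at the tip in each of the 5 mice. Apoc3 differed by -1.14 ± 0.32 on the log2 scale (adjusted p = 0.0318, but 0.119, 0.0790, 0.0856 and 0.0626 without mouse 1, 2, 3 or 5). Apoc2 differed by -1.11 ± 0.36 (adjusted p = 0.0563, 0.0442 without mouse 2 and 1.21e-06 with the mouse as a block). Of the 25 genes tested there 1 was called higher in the mid villus and 4 lower (2 and 10 with the mouse as a block, and 0 and 1 without mouse 1 or mouse 3). Rbp2, which binds retinol in the enterocyte, rose 10.7-fold, from 231 ± 162 to 2428 ± 1273 CPM (adjusted p = 1.41e-04). The member that fell, named after its values were seen, was Dgkz, a diacylglycerol kinase (-0.91 ± 0.34 on the log2 scale, adjusted p = 0.0435).

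Of genes of xenobiotic and retinol metabolism 23 of 30 tested rose and none fell (median log2 fold change 1.78). Cyp2b10, a cytochrome P450 induced by foreign compounds, stood at 148, 255, 271, 296 and 49.3 CPM in the mid villus and at 3.41, 14.2, 11.9, 2.98 and 0 in the crypt. The lowest mid villus value was above the highest crypt value, and the rise was 5.10 ± 0.52 on the log2 scale (adjusted p = 1.16e-05). Cyp3a11, another P450 of drug metabolism, rose by 4.82 ± 0.68 (adjusted p = 6.87e-05), from 8.08 ± 10.3 to 226 ± 134 CPM. Against the tip 6 of 27 were called higher in the mid villus and 1 lower (11 and 5 with the mouse as a block, 4 and 0 without mouse 1, 4 and 1 without mouse 2, and 3 and 1 without mouse 3).

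**Figure D4:**
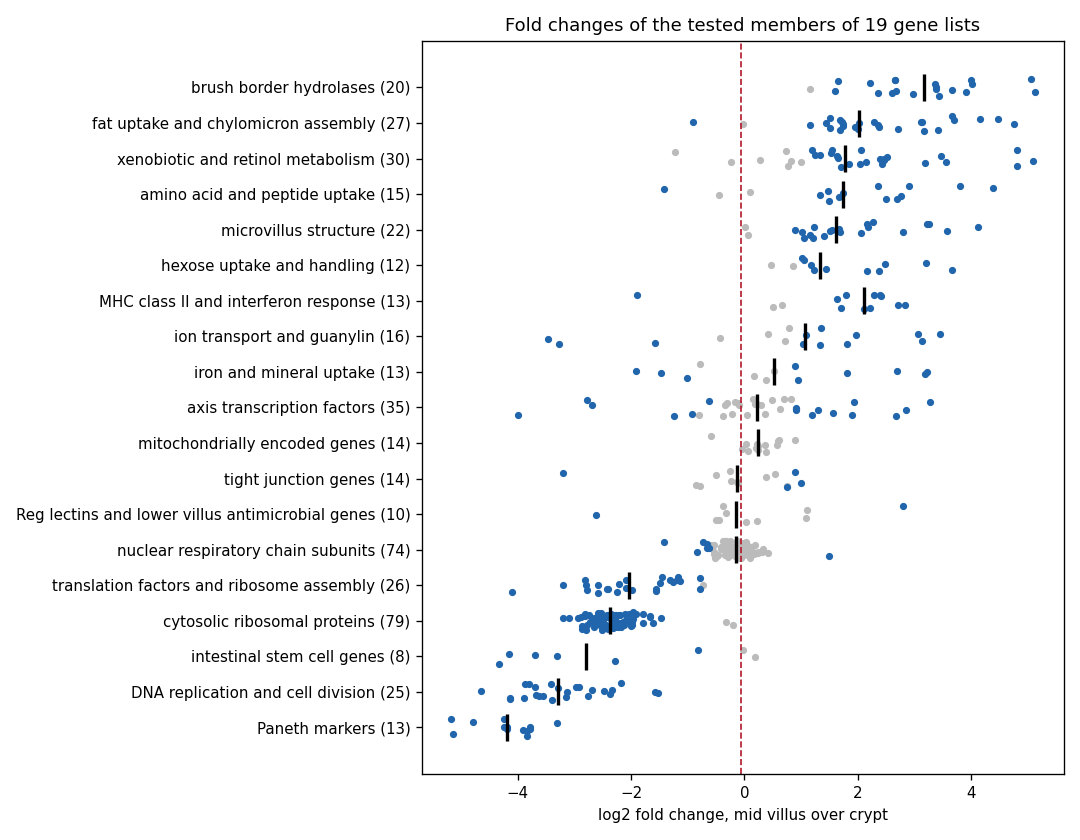
Each point is 1 tested gene of a list (number tested in brackets), at its log2 fold change of mid villus over crypt (horizontal axis); blue points passed an adjusted p of 0.05 and grey points did not. Black bars are list medians and the dashed line is the median of all 6320 genes tested; hydrolases centre at 3.18 and genes of DNA replication at -3.29.

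The Reg lectins and antimicrobial genes of the lower villus were called in few cases between mid villus and crypt. Of 10 tested, 1 rose and 1 fell, and the median log2 fold change was -0.15, as the plot of fold changes by list shows. With the mouse as a block 3 rose and 3 fell. The gene that rose was Gsdmd, the pore former of pyroptosis, from 68.3 ± 29.1 to 458 ± 101.4 CPM (6.94-fold, adjusted p = 1.39e-05). The gene that fell was Pycard, the inflammasome adaptor, from 757 ± 163 to 124 ± 100.6 CPM (6.13-fold, adjusted p = 9.00e-05). Gsdmd and Pycard passed in each of the 17 alternatives run on them.

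Against the tip 4 of 10 tested genes of that list were called higher in the mid villus and none lower. With the mouse as a block 9 were called higher. The count was 3 of 10 without mouse 1, 1 of 9 without mouse 2 and 0 of 9 without mouse 3. Lypd8, a secreted protein that keeps flagellated bacteria off the epithelium, stood at 957, 1240.4, 1414, 2457 and 1261 CPM in the mid villus and at 1486, 1974, 2199, 1893 and 2675 in the crypt. The zones overlapped, and only mouse 4 was higher in its mid villus (-0.50 ± 0.35 on the log2 scale, adjusted p = 0.263, and 0.0470 with the mouse as a block). Without mouse 4 the difference was -0.76 and without mouse 5 -0.22, neither past the threshold (adjusted p = 0.100 and 0.602), and with stricter apolipoprotein limits it passed at -0.99 (adjusted p = 0.0441). Against the tip, at 419 ± 357 CPM, Lypd8 was 1.86 ± 0.45 higher in the mid villus on the log2 scale (adjusted p = 0.0157, but 0.0677 and 0.0733 without mouse 2 or 3).

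Nlrp6, an inflammasome sensor, had a mean of 124 ± 33.9 CPM in the mid villus, between 173 ± 63.0 in crypt clumps and 36.6 ± 52.9 at the tip. Its mid villus differed from the crypt by -0.44 ± 0.24 on the log2 scale (adjusted p = 0.149, 0.0373 with the mouse as a block, 0.0284 with stricter apolipoprotein limits and 0.0375 without mice 4 and 5) and was 2.31 ± 0.60 higher than the tip (adjusted p = 0.0202, but 0.0834, 0.109 and 0.137 without mouse 1, 2 or 3). Il18, a cytokine released by inflammasomes, had a mean of 107 ± 53.0 CPM in the mid villus, against 138 ± 75.8 in the crypt and 21.7 ± 5.13 at the tip, with an adjusted p of 0.610 against the crypt and 0.00268 against the tip, where it was too sparse to be tested without mouse 2 or mouse 3. Its difference from the crypt was -0.32 on the log2 scale and 0.06 without mouse 5.

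Reg1, another lectin of the family, was set by mouse 4. It stood at 31.5, 122, 37.3, 735 and 7.05 CPM in the mid villus and at 17.8, 86.5, 94.99, 167 and 47.3 in the crypt. The difference was 1.11 ± 0.82 on the log2 scale (adjusted p = 0.294), and it was -0.13 without mouse 4 (adjusted p = 0.875). Reg3b and Reg3g, the abundant bactericidal lectins, are given after their values were seen. Reg3b was 14256 ± 4617 CPM in the mid villus and 11619 ± 9711 in the crypt, and Reg3g 8896 ± 3240.4 and 8411 ± 5587. Neither passed (adjusted p = 0.801 and 0.979).

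The summed level of 42 listed genes of DNA replication and cell division was 1509 to 4000.4 CPM in the crypt and 208 to 718 in the mid villus. Of them 25 passed the filter on low counts and 25 were called lower in the mid villus, with a median log2 fold change of -3.29. Most of their counts lie in the crypt, through which they could pass the filter, and the others were not tested. Hmgb2, a chromatin protein of dividing cells, stood at 119, 241, 128, 297 and 104 CPM in the crypt and at 12.3, 9.79, 7.64, 33.2 and 0 in the mid villus. The zones did not overlap, and the crypt was 14.0-fold higher (adjusted p = 2.56e-05). Stmn1, a microtubule regulator, was 17.5-fold higher in the crypt (adjusted p = 8.17e-05). Pcna, the sliding clamp of DNA polymerase, had the smallest fall of those tested, from 92.7 ± 14.7 to 32.3 ± 7.33 CPM (adjusted p = 9.48e-05). Ccnd1 and Ccnb1, cyclins of G1 and of mitosis, were 8.81-fold and 6.76-fold higher in the crypt (adjusted p = 4.86e-04 and 0.00454). The mid villus levels of Stmn1 and Ccnb1 rest on 18 and 15 UMIs. Mcm2, a subunit of the replicative helicase, did not reach the level needed for testing, at 20.2 ± 11.2 CPM in the crypt and 3.21 ± 2.44 in the mid villus.

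Of 23 stem cell genes 8 were tested, 6 fell and none rose. Slc12a2, a chloride cotransporter of crypt cells, fell from 59.2 ± 28.0 to 3.64 ± 4.83 CPM (-4.16 ± 0.56 on the log2 scale, adjusted p = 4.95e-05), with 14 UMIs in all mid villus wells. Clca3b stood at 174, 189, 232, 810 and 246 in the crypt and at 9.59, 1.40, 21.5, 123 and 28.2 in the mid villus. It fell in each mouse (-3.30 ± 0.78, adjusted p = 0.00318), and mouse 4 was far above the others in both zones.

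Genes of protein synthesis were lower in the mid villus as well. Of 79 cytosolic ribosomal protein genes tested 77 fell and none rose (median log2 fold change -2.38), and their summed level was 51417 to 112465 CPM in the crypt and 7406 to 37599 in the mid villus. Rpl3 stood at 692, 736, 683, 1147 and 394 CPM in the crypt and at 50.7, 51.7, 48.7, 252 and 28.2 in the mid villus. Mouse 4 was the highest in both zones, the zones did not overlap, and the crypt was 8.56-fold higher (adjusted p = 1.58e-04). Rpl12 was 9.16-fold higher in the crypt (adjusted p = 6.97e-05). Of 26 genes of translation and ribosome assembly tested 25 fell, among them Npm1, a nucleolar chaperone (325 ± 131 to 44.7 ± 41.6 CPM, adjusted p = 2.55e-04), and Nhp2, a subunit of small nucleolar particles (79.1 ± 34.6 to 11.9 ± 17.6, adjusted p = 0.00116). Against the tip 1 of 79 ribosomal protein genes was called higher in the mid villus and none lower, with a median log2 fold change of 0.63. With the mouse as a block 50 were called higher and none lower, and without mouse 4 this count was 21.

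Between mid villus and crypt, respiratory chain and mitochondrial transcripts were called in few cases. Of 74 nuclear subunits tested 1 rose and 6 fell (median log2 fold change -0.14). Without mice 1, 2 and 3 in turn, 1 rose and 2 fell each time, and without mouse 4, 1 rose and 10 fell. Cox7a1, a subunit of cytochrome oxidase, rose 2.82-fold (174 ± 86.4 to 485 ± 199 CPM, adjusted p = 0.00348), and Ndufc2, a subunit of complex I, was 1.78-fold higher in the crypt (200.3 ± 21.4 against 111 ± 30.1, adjusted p = 0.00797). The call of Ndufc2 was lost with no filter on low counts, in pairs only and without mice 4 and 5 (adjusted p = 0.113, 0.0787 and 0.0696). Against the tip 13 of 71 nuclear subunits were called higher in the mid villus and 1 lower (median log2 fold change 0.80), and 61 and 1 with the mouse as a block. Without mice 1, 2 and 3 in turn, 2, 2 and 1 were called higher there. Ndufc2 was 1.23 ± 0.36 higher than at the tip on the log2 scale (adjusted p = 0.0379, but 0.0703, 0.120, 0.121 and 0.0741 without mouse 1, 2, 3 or 5). Between mid villus and crypt, of 14 mitochondrially encoded genes tested 0 were called by edgeR, and 4 rose with the mouse as a block. Their summed level was 46879, 51349, 57784, 67056 and 192573 CPM in the crypt of mice 1 to 5 and 88891, 73913, 79843, 88220.2 and 221464 in the mid villus, with mouse 5 far above the others in both.

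Ion transport and minerals were divided. Guca2b (uroguanylin), which controls salt and water secretion, rose 8.36-fold (248 ± 118 to 2046 ± 749 CPM, adjusted p = 3.71e-05). Slc13a2, a sodium-coupled dicarboxylate carrier, rose 11.0-fold (14.9 ± 11.0 to 146 ± 105, adjusted p = 4.79e-04). Kcne3, a subunit of basolateral potassium channels, was 11.0-fold higher in the crypt (65.9 ± 43.3 against 6.50 ± 10.8, adjusted p = 8.75e-04). In all, 9 of 16 genes of ion transport rose and 3 fell. Of 13 mineral genes 6 rose and 3 fell, and 2 rose and 1 fell without mouse 1, and 3 rose and 2 fell without mouse 3. Slc46a1, the proton-coupled folate carrier, rose 9.30-fold (adjusted p = 3.10e-05), and Tfrc, the transferrin receptor, was 3.75-fold higher in the crypt (adjusted p = 0.00404). Slc34a2, a phosphate carrier, stood at 823, 143, 767, 113 and 1120.4 CPM in the mid villus and at 77.2, 8.51, 89.8, 3.35 and 170.2 in the crypt. It rose 9.12-fold (adjusted p = 0.0162) with a wide spread between mice, and its call was lost without mouse 1 (adjusted p = 0.0584) or mouse 3 (adjusted p = 0.0548).

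Of 35 transcription factors of the crypt-villus axis tested, 11 were called higher in the mid villus and 6 lower (7 and 4 without mouse 3), a share close to the 45.6% of all genes tested. Klf4, a factor of post-mitotic epithelium, rose from 39.6 ± 14.3 to 285 ± 139 CPM (7.25-fold, adjusted p = 1.79e-05). At the tip it stood at 949 ± 392, and the mid villus differed from it by -1.81 ± 0.33 on the log2 scale (adjusted p = 0.00279). Cdx1, an intestinal homeobox factor, was 2.36-fold higher in the crypt (108 ± 28.4 against 48.2 ± 17.2, adjusted p = 0.00661).

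Of 13 genes of MHC class II and the interferon response 10 rose and 1 fell, and 6 rose and 1 fell without mouse 3. Isg15, a ubiquitin-like protein made under interferon, stood at 60.3, 164, 69.7, 46.8 and 56.4 CPM in the mid villus and at 7.57, 39.7, 13.5, 3.41 and 3.15 in the crypt. Mouse 2 was the highest in both zones, and the rise was 7.11-fold (adjusted p = 0.00138). Ly6e, another interferon-induced gene, was 3.72-fold higher in the crypt (adjusted p = 0.00110).

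Of 14 tight junction genes 3 rose and 1 fell, and without mice 1, 2 and 3 in turn none rose and 1 fell. Cldn7, a claudin of the lateral membrane, rose 1.86-fold (403 ± 145 to 742 ± 110.5 CPM, adjusted p = 0.0208), a call that was lost without mouse 1, 2 or 3 (adjusted p = 0.0906, 0.0846 and 0.0651). At the tip it stood at 1632 ± 365, and the mid villus differed from it by -1.17 ± 0.26 on the log2 scale (adjusted p = 0.00804, but 0.0537 and 0.0570 without mouse 1 or 2). Of 14 immediate early and stress genes 2 rose and 2 fell, without mouse 1 or mouse 3, 1 rose and 1 fell, and without mouse 4, 6 rose and 2 fell. Cdkn1a, an inhibitor of the cell cycle, rose 2.79-fold (adjusted p = 0.00159), and Hsp90aa1, a chaperone, was 2.96-fold higher in the crypt (adjusted p = 5.73e-04).

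Of 23 genes of the villus tip tested 18 rose over the crypt and none fell, whereas 27 of 28 tested against the tip were lower in the mid villus and none was higher. Ada, a gene of the tip, set the border between mid villus and tip, so that direction follows from the choice of wells. Pmp22, a tetraspan membrane protein, stood at 145, 322, 311, 123 and 211 CPM in the mid villus, at 0.379, 12.8, 16.1, 1.52 and 0 in the crypt and at 1497, 1926, 2102, 2311 and 1071 at the tip. The 3 zones did not overlap. It rose 43.1-fold over the crypt (adjusted p = 5.09e-05) and differed from the tip by -3.04 ± 0.35 on the log2 scale (adjusted p = 8.95e-05).

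Among genes with the same direction in every mouse and at least 50 CPM in the higher zone, the largest mid villus rises were those of Gm10680, Susd2, Slc5a12, Cubn, Pmp22, Enpp7, Cyp2b10 and Enpp3. Cubn, the receptor for vitamin B12 bound to intrinsic factor, stood at 95.9, 92.3, 108, 93.6 and 77.5 CPM in the mid villus and at 4.92, 2.84, 2.08, 0.731 and 0 in the crypt. It rose by 5.53 ± 0.47 on the log2 scale (adjusted p = 4.80e-06) and was above the tip in 5 of 5 mice, by 1.27 ± 0.41 (adjusted p = 0.0529, and 0.00313 with the mouse as a block). Slc5a12, a sodium-coupled carrier of lactate and other short acids, rose from 1.48 ± 1.29 to 59.0 ± 42.2 CPM (5.73 ± 0.68 on the log2 scale, adjusted p = 2.28e-05). Susd2, a surface protein, rose from 0.800 ± 1.59 to 68.6 ± 30.4 (6.50 ± 0.74, adjusted p = 1.70e-05). Susd2 was below the tip in 4 of 5 mice (-1.83 ± 0.46 on the log2 scale, adjusted p = 0.0184, but 0.112, 0.0764 and 0.107 without mouse 1, 2 or 3). Gm10680 is an antisense gene on chromosome 9 (46242621 to 46243529, minus strand) that overlaps Apoa4 (46240696 to 46243459, plus strand), a gene that selected the wells. Its rise is therefore given as a description. The study set the strand of the library when it counted reads, and whether this kept reads of Gm10680 and Apoa4 apart was not checked. Gm10680 was below the tip in each of the 5 mice (-1.90 ± 0.79, adjusted p = 0.125, 1.57e-07 with the mouse as a block and 0.00794 without mouse 5). The crypt levels of Gm10680 and Susd2 rest on 13 UMIs each over all 5 mice and that of Slc5a12 on 18, so the sizes of these rises are uncertain.

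By the same conditions the largest falls were Defa2, Gm15308, Gsdmc4, Gm15293, Gm10104, Gm21498, Defa22 and Defa21. Gsdmc4, a gasdermin, fell from 89.5 ± 19.4 to 2.48 ± 3.44 CPM (-5.47 ± 0.55 on the log2 scale, adjusted p = 1.08e-05). Its mid villus level rests on 8 UMIs over the 5 mice, with 0 in mice 2 and 5, so the size of the fall is uncertain. Defa2 stood at 13571, 5.67, 3795, 788 and 1651 CPM in the crypt and at 164, 0, 111, 99.5 and 7.05 in the mid villus, so that mouse 2 had nearly none in either zone. The falls other than that of Gsdmc4 turned direction without wells of 10 or more secretory or lymphocyte marker UMIs, to between 0.0046 (Gm10104) and 0.59 (Gm15308) on the log2 scale. Without the wells of 10 or more Paneth marker UMIs alone, Defa2, Gm15308, Gm10104, Gm21498 and Defa22 turned too, to between 0.23 (Gm10104) and 0.76 (Gm15308). Defa21 and Defa22 are among the Paneth markers by which wells were removed, so their turns follow from the removal. Defensin genes are near-identical copies of each other, and the split of reads between them is uncertain.

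All 13 Paneth markers tested fell, with a median log2 fold change of -4.19, and 6 did without mouse 1. Their summed level was 47382, 109, 17349.7, 17264 and 6132 CPM in the crypt of mice 1 to 5 and 735, 35.0, 656, 3458 and 127 in the mid villus. Defa24 and Defa17 were called at -3.83 ± 1.20 and -4.25 ± 1.33 on the log2 scale (adjusted p = 0.0172 and 0.0172). Each lost its call without mouse 1, 3 or 5 (adjusted p = 0.0919, 0.0606 and 0.0560 for Defa24 and 0.0879, 0.0599 and 0.0545 for Defa17). Without the Paneth marker wells described next both turned to 0.44 on the log2 scale. A well can hold a Paneth cell beside other cells. Wells with 10 or more Paneth marker UMIs made up 0.962% to 52.3% of the crypt wells of a mouse and 0% to 32.1% of its mid villus wells. The limit of 10 UMIs is absolute and depth differed, with medians of 6104 UMIs in crypt and 1684 in mid villus wells of mouse 4. These shares are therefore not comparable between zones or mice. Empty wells were not subtracted, so a well past the limit need not hold a Paneth cell. The Paneth marker wells were removed by these same markers. The loss of their calls, 0 of 8 tested, and the turn of Defa24 and Defa17 therefore follow from the removal. In the fit without these wells 25 of 25 replication genes and 77 of 79 ribosomal protein genes fell. In it 12 of 15 genes of amino acid uptake and 19 of 20 hydrolases rose. The part of Paneth cells in those differences was not tested.

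Markers of other cell types were uneven between mice. Of 8 goblet markers 1 rose and 2 fell, and the counts depended on single mice, with 5 and 3 without mouse 2, 0 and 1 without mouse 3, and none called without mouse 1, 4 or 5. Zg16, a goblet cell lectin, was 3749.5 ± 2841 CPM in the mid villus and 1409.9 ± 761 in the crypt (adjusted p = 0.0461), and the call was lost without mouse 1, 3, 4 or 5 (adjusted p = 0.182, 0.193, 0.0614 and 0.0855), without mice 4 and 5 together (0.103), in pairs only (0.150) and without secretory or lymphocyte marker wells (0.408). Tff3, the trefoil peptide of mucus, was 2816 ± 1951 and 1507 ± 638 (adjusted p = 0.128, 0.0283 without mouse 2 and 0.0276 without Paneth marker wells). The summed goblet markers held 1399.8 to 17712 CPM in the mid villus and 3697 to 6572 in the crypt.

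Of the enteroendocrine markers Sct, the hormone secretin, stood at 104, 22.4, 41.5, 23.4 and 254 CPM in the mid villus of mice 1 to 5 and at 16.7, 31.2, 15.1, 15.4 and 12.6 in the crypt. Mice 1 and 5 were far above the others in the mid villus, and mouse 2 had the opposite order. The fitted rise was 4.73-fold (adjusted p = 0.0161, and 0.0686 without mouse 1), with a log2 fold change of 2.24 and of 1.47 without mouse 5. Gip, an incretin hormone, was not tested and stood at 0.379, 655, 19.7, 10.4 and 6.30 CPM in the crypt. Tuft and lymphocyte markers were too sparse for a test. Their summed levels in the mid villus were 4.20 to 67.1 and 4.11 to 70.5 CPM, and in the crypt 2.84 to 86.7 and 2.65 to 444. In the blood and stroma list Lyz2, a lysozyme, stood at 275 ± 311 CPM in the crypt and 13.3 ± 14.2 in the mid villus and was called (-4.63 ± 1.01 on the log2 scale, adjusted p = 0.00187). Igha, the constant part of IgA, was not tested, at 0.757, 278, 567, 0.548 and 0 in the crypt of mice 1 to 5. The part of these cell types in the other differences was not tested beyond the wells left out above. In sums over wells, fewer cells of a type and less RNA in each of them cannot be told apart.

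Among enterocyte markers 10 of 15 rose and 2 fell. Those that fell were the keratins Krt19 (1594 ± 493 to 312 ± 219 CPM, adjusted p = 2.22e-04) and Krt18 (189.7 ± 73.0 to 72.6 ± 38.9, adjusted p = 0.00877). The zone genes were taken from the study, which shows them on these clumps, and are not independent evidence of direction. Of them 6 of 6 mid villus genes were higher and 4 of 4 tested crypt genes lower (2 of 2 tested without mouse 4), and 0 of 5 bottom villus genes were called either way by edgeR. With the mouse as a block, 1 of those 5 rose and 2 fell, and without mouse 5, 1 rose. Against the tip 4 of these 5 were called higher in the mid villus, but 1 of the 4 that could be tested without mouse 2 and 0 of the 4 that could be tested without mouse 3.

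Pairs and larger clumps were also fitted each alone. In pairs 1675 of 4533 genes tested were called, of which 1613 were among the calls of both gates together. In larger clumps, which come from mice 1, 4 and 5, these counts were 1184 of 4068 and 1178. Slc5a1 rose by 2.19 in pairs and 2.39 in larger clumps on the log2 scale (adjusted p = 0.00304 and 0.00935), and Slc6a19 by 3.93 and 4.55. Rpl3 differed by -3.77 and -2.65 (adjusted p = 3.20e-06 and 0.00889). Some calls were lost within a gate. In larger clumps the adjusted p was 0.0536 for Tmigd1, 0.0915 for Slc34a2, 0.176 for Tfrc, 0.0658 for Cdx1 and 0.0684 for Ly6e. Slc7a8 and Cldn7 passed neither in larger clumps (adjusted p = 0.0812 and 0.244) nor in pairs (adjusted p = 0.255 and 0.0658). Reg3a differed by 0.48 and 1.495 and passed in neither (adjusted p = 0.464 and 0.0766). A test of the gate by zone term in mice 1, 4 and 5 with edgeR called 0 of 4803 genes (0%). Of them 19 (0.396%) had an unadjusted p under 0.05, fewer than chance alone would give. With the mouse as a block the test called 0 genes too, with 88 at an unadjusted p under 0.05. Without the block the term was 0.40 ± 0.97 for Slc5a1 and 0.08 ± 1.10 for Slc2a2 on the log2 scale. With errors this wide the test can miss a difference between gates, so 0 calls do not show that the gates agree. DESeq2's test was not run on that term.

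Mouse 6, whose plates carry the gate label h2n, took no part in the rule or in any fit. The same limits gave 65 mid villus and 119 crypt wells there, with 178426 and 518603 UMIs. Of the 1219 genes called higher in the mid villus 89.1% were higher there too, of 1655 called lower that had a UMI in this mouse 89.9% were lower, and over all 6309 genes tested with a UMI 48.3% were higher. Slc5a1 stood at 2432 CPM in its mid villus and 374 in its crypt, and Slc7a7 at 235 and 106. Reg3a had the opposite order, 78.5 in the mid villus and 131 in the crypt. With 1 mouse these values have no replicate and no test.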

How the data were processed

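RNA of jejunal clumps was measured by MARS-seq with unique molecular identifiers. The authors aligned reads to GRCm38 with STAR and counted them with zUMIs (per the study's methods), after demultiplexing with bcl2fastq 2.15.0.4 (per the submitters' processing notes). The deposited table holds whole-number UMI counts per gene and well, of 17162 clump wells and 27538 genes, without the subtraction of empty wells that the study applied.

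Wells were filtered, placed in zones and summed per mouse and zone, without Apoa1, Apoa4, Apob and Ada. Sums held 141919 to 16416666 UMIs in the mid villus and crypt and 47620 to 745857 at the villus tip. They were tested with edgeR 4.0.16 (R 4.3.3, TMM, filterByExpr, quasi-likelihood test, zone as the only term) with Benjamini-Hochberg adjustment at 0.05. The study tested zones over clumps, and here the mouse is the replicate. The SE of a log2 fold change is its size divided by the square root of the F statistic of the edgeR test. DESeq2 1.42.0 was an alternative. Scripts were tested on simulated data. No doublet caller was run, because a clump holds several cells by design. Both zones of a mouse come from the same animal, and deviations from the zone means correlated within mice 1 to 5 at 0.372, 0.516, 0.465, 0.565 and 0.271 across genes; the fit with the mouse as a block was an alternative.

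Genes named were the 3 markers, 14 zone genes of the study, per list up to 2 rises and 2 falls by size (same direction in every mouse, at least 50 CPM), the 8 largest rises and falls among all genes tested, and 2 leading genes of each other cell type; exceptions are stated. Zones, lists and tests were chosen with earlier results of these data known. A result that the naming rule picked is not reported here.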

Additional observations from a re-analysis of the deposited data

Results flagged for a closer look

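Of 226 groups of 5 mice examined, 38 held a highest or lowest mouse that stood apart from the other 4 by Dixon's criterion, 20 of them mouse 4 and 8 mouse 5; for independent, normally spread values chance alone gives about 1 in 20, a rate that need not hold here, since the groups share mice and some rest on few UMIs. Values are CPM, with the range of the other mice. In the mid villus mouse 4 was highest for Reg3a (735, others 134 to 217), Reg1 (735, others 7.05 to 122), Pycard (300.3, others 55.9 to 101.2), Clca3b (123, others 1.40 to 28.2), Nhp2 (42.9, others 0 to 8.12), Tfrc (60.5, others 0 to 14.0), Kcne3 (25.4, others 0 to 5.73), Defa24 (1314, others 5.59 to 211), Defa17 (591, others 0 to 89.0), Rpl12 (359, others 68.5 to 91.6) and Rpl3 (252, others 28.2 to 51.7). In the crypt it was highest for Clca3b (810, others 174 to 246), Nhp2 (141, others 59.4 to 66.2) and Cldn7 (657, others 299 to 374). Its summed mid villus levels were highest for DNA replication and cell division (718, others 208 to 296), the study's bottom villus genes (4208, others 1368 to 1934) and Paneth markers (3458, others 35.0 to 735). Its summed crypt levels were highest for intestinal stem cell genes (1608, others 506 to 678), DNA replication and cell division (4000.4, others 1509 to 2056) and the study's crypt genes (567, others 189 to 271).

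Mouse 5 was highest in the mid villus for Gm10680 (204, others 28.8 to 60.7) and mitochondrially encoded genes (221464, others 73913 to 88891). In the crypt it was highest for F11r (145, others 58.3 to 82.5), Gm10680 (6.30, others 0 to 1.04) and mitochondrially encoded genes (192573, others 46879 to 67056). It was lowest in the mid villus for tight junction genes (1515, others 1956 to 2094). It was lowest in the crypt for Pycard (473, others 769 to 867) and Npm1 (97.7, others 345 to 429.6). Mouse 2 was highest in the mid villus for Enpp3 (215, others 46.6 to 81.7) and Isg15 (164, others 46.8 to 69.7). In the crypt mouse 2 was highest for Isg15 (39.7, others 3.15 to 13.5), Sct (31.2, others 12.6 to 16.7), enteroendocrine markers (1045, others 102 to 189) and lymphocyte markers (444, others 2.65 to 90.3). Mouse 2 was lowest in the crypt for Slc46a1 (5.67, others 8.71 to 9.45). Mouse 3 was highest in the crypt for Cyp3a11 (26.0, others 0 to 6.30) and Susd2 (3.63, others 0 to 0.365). Mouse 1 was highest in the crypt for Defa2 (13571, others 5.67 to 3795).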

How the results depend on the processing

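Over 1345 alternative values of single genes in mid villus against crypt, 1251 kept their direction and side of the threshold, 65 lost a call, 10 gained one and 19 turned direction; of 544 list counts 453 stayed within 1.5 times and 91 did not. The count of 2884 genes was 1675 in pairs only and 1184 in larger clumps only, where fewer genes were tested, and 2118 to 3825 with 1 mouse left out. Against the tip 487 genes became 861 by DESeq2's test, 1405 with the mouse as a block, and 176 to 585 with 1 mouse left out. With the mouse as a block 3719 genes were called against the crypt, of which 2882 were among the 2884. Without a filter on low counts 3790 of 23958 were called. The directions that turned were those of Il18 without mouse 5 (0.060 on the log2 scale, and -0.58 to 0.060 over the mice left out) and of Reg1 without mouse 4 (-0.13, and up to 1.40 with another mouse left out), in pairs only (-0.67), without Paneth marker wells (-0.11) and without secretory or lymphocyte marker wells (-0.13). Without Paneth marker wells Defa24 was 0.44, Defa17 0.44, Defa2 0.51, Gm15308 0.76, Gm10104 0.23, Gm21498 0.37 and Defa22 0.52. Without secretory or lymphocyte marker wells Defa2 was 0.32, Gm15308 0.59, Gm15293 0.15, Gm10104 0.0046, Gm21498 0.026, Defa22 0.48 and Defa21 0.38. Those wells were removed by markers that include Defa24, Defa17, Defa21 and Defa22, and the cause of the other turns was not tested. Depth limits the thin sums. Those of the tip hold 47620 to 745857 UMIs. The mid villus sum of mouse 5 holds 141919 UMIs, so that 1 UMI there is worth 7.05 CPM.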
